A study of Homo sapiens with 12 samples.

Results

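The genes described here encode cullins, the scaffold proteins of cullin-RING ubiquitin ligases, and the receptors that bring substrates to them. They were chosen by name: protein-coding genes whose gene ID maps to a symbol that begins with FBXO, FBXL, FBXW, KLHL, KBTBD, KCTD, BTBD, DCAF or SOCS, or with CUL or ASB followed by a digit. KEAP1, a receptor of the same kind, was left out of the set. Of the 5759 genes in the authors' deposited table, 66 qualified. RefSeq holds 194 protein-coding genes with such symbols, so the authors' deposited table lists 34.0% of them, beside 26.3% of all 20056 RefSeq protein-coding genes. The other 128, among them CUL4A, CUL4B, CUL5 and FBXW7, are not analysed here.

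In a cullin-RING ligase, the cullin holds a RING protein and a ubiquitin-conjugating enzyme at one end and a substrate receptor at the other, and attachment of the ubiquitin-like protein NEDD8 to the cullin switches the ligase on. Each cullin has its own class of receptors: F-box proteins bind CUL1 through SKP1, BTB proteins bind CUL3 directly, DCAF proteins reach CUL4 through DDB1, and SOCS box proteins reach CUL2 or CUL5 through elongins B and C. Many drugs for targeted protein degradation work by bringing such a ligase to a protein it does not normally recognise.

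RNA was sequenced from MOLT4 cells, an established human T lymphoblast line from an acute lymphoblastic leukaemia, with a wild-type genotype per the labels. There were 4 groups with 3 samples in each. The controls were kept in DMSO and collected at 6 h. Compound 955 was used at 0.1 µM, with groups collected at 1 h and at 6 h, and SNS-032 was used at 1 µM with collection at 6 h. SNS-032 is an inhibitor of cyclin-dependent kinases, CDK9 among them, and 955 is a piperlongumine conjugate that carries SNS-032 as its target-binding part. The design compares the conjugate with this part for efficacy and specificity. The doses of the compounds differ, and the only DMSO group is at 6 h, so in the comparison of 955 at 1 h treatment and time in culture cannot be told apart.

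The values are log2 fold changes against DMSO, F statistics and false discovery rates (FDR) from the authors' deposited table. It holds 3 comparisons, which share the DMSO samples, and only genes with a change past a bound in at least 1 of them, so every share below is over a selected set. In every listed gene the largest log2 fold change has a size of 1.00 or more, and only 2 genes pass the threshold used below in no comparison. A gene past a log2 fold change of 1 in only 1 comparison is thus listed through that comparison. Its passing there is not a separate result. Values per sample were not used here and the depth is unknown. The error given is an implied standard error (SE), obtained by dividing the size of a log2 fold change by the root of its F. Nothing in the labels says that replicates came from separate cultures, so p-values measure only the spread between these samples. In such bulk samples, fewer cells and less RNA per cell cannot be told apart. Of 23 T lymphoblast markers, 11 are listed, with average levels of 3.74 to 9.73 log2 CPM (library-scaled counts). Of the B cell, myeloid, erythroid and fibroblast markers, CD79A (3.94) and COL1A1 (3.18) are among those listed, and their part in the results was not tested. The 13 mitochondrially encoded mRNAs had median log2 fold changes of 0.67, 2.07 and 2.35 in the comparisons of 955 at 1 h, 955 at 6 h and SNS-032. Setting those medians to 0, called mitochondrial scaling below, lowers every log2 fold change of that comparison by the same amount.

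At 6 h most of the 66 genes were lower with either compound, and a smaller group was higher. The threshold for a call was an FDR under 0.05 together with a log2 fold change of 1 or more in size. After 6 h of 955, 38 genes fell and 15 rose. Those are 57.6% and 22.7% of the set, where 50.1% of all listed genes fell and 35.2% rose. After SNS-032, 43 fell (65.2%) and 16 rose (24.2%), beside 52.5% and 37.8% of all listed genes. After 1 h of 955, 11 fell (16.7%) and 0 rose, beside 7.71% and 0.729% of all listed genes. Without the fold bound, the authors' deposited FDR at 1 h gave 1 gene higher, CUL9, and the unadjusted p was under 0.05 for 5 genes higher.

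The median log2 fold change over the 66 genes was -0.41 after 1 h of 955, -1.17 after 6 h of 955 and -1.23 after SNS-032, beside -0.05, -1.03 and -1.07 over all listed genes. The median implied SE was 0.21, 0.22 and 0.22 in the same order. The split into rises and falls depends on the scale: under mitochondrial scaling 0 genes of the set were higher in any of the 3 comparisons, and 39, 53 and 55 were lower. Of all 5759 listed genes, 16, 142 and 116 were higher on that scale and 1766, 3825 and 4151 were lower. Rises below are therefore rises on the deposited scale. The average level of the genes over all samples had a median of 4.09 log2 CPM and ran from 0.645 to 7.91, beside a median of 4.15 over all listed genes.

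**Figure D1:**
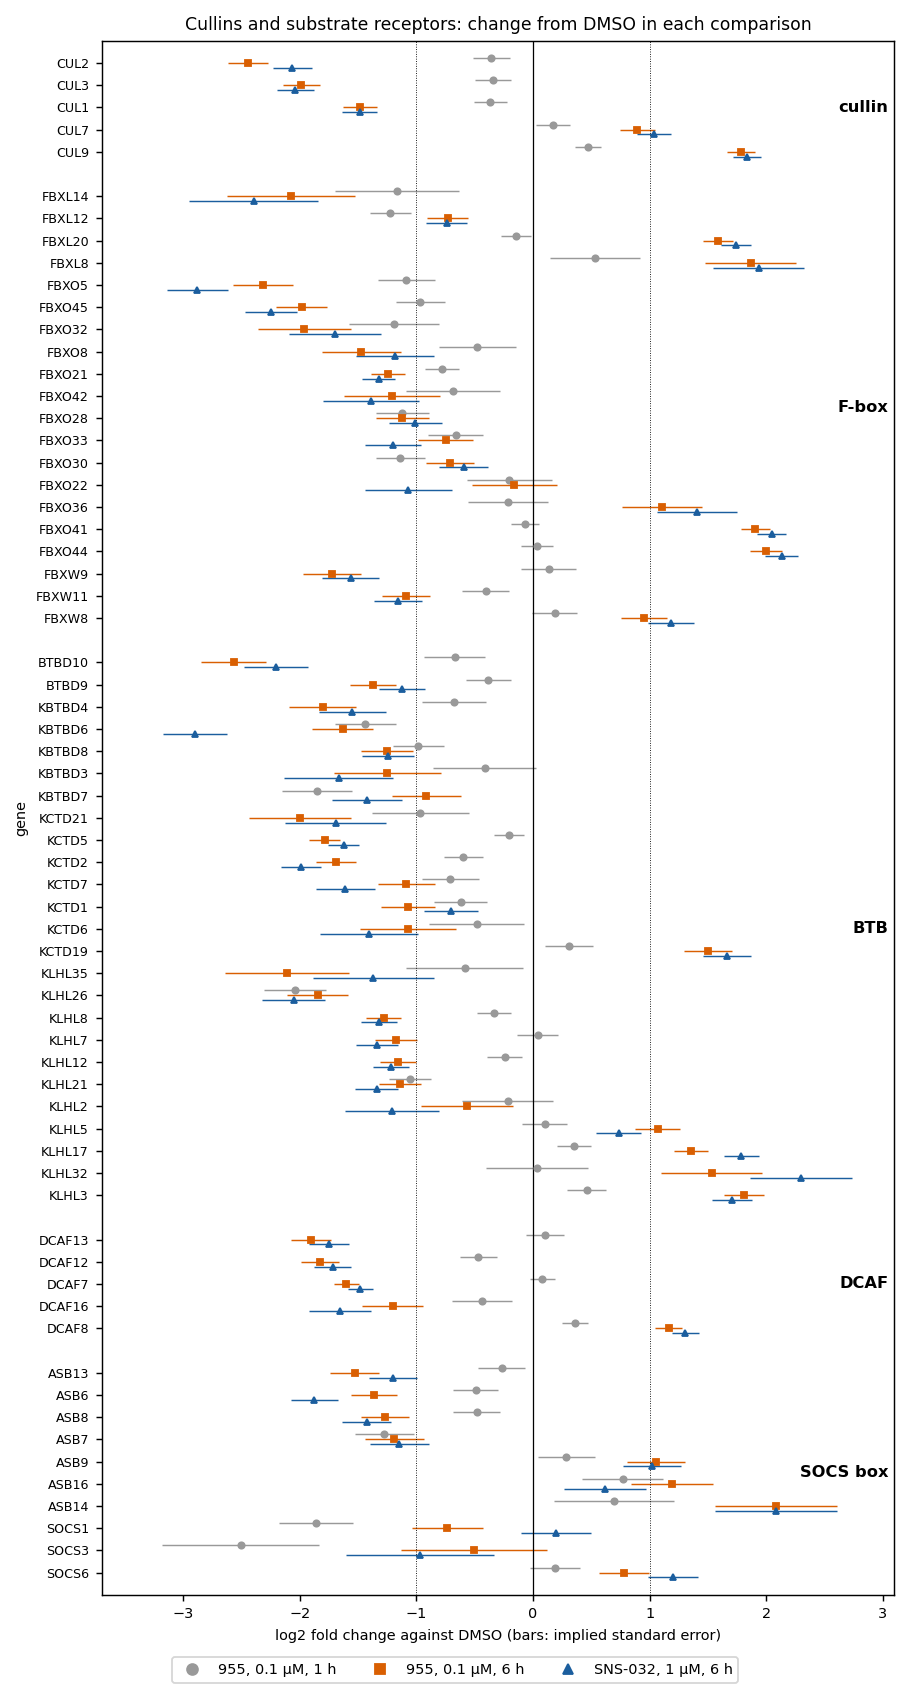
Log2 fold change against DMSO (x axis) of 65 of the 66 cullin and receptor genes (y axis), by class, after 955 at 1 h (grey circles), 955 at 6 h (orange squares) and SNS-032 at 6 h (blue triangles), with bars of 1 implied SE and dotted lines at the fold bound of 1. The 6 h symbols of a gene lie close together in most rows, and over the whole set 38 genes were lower and 15 higher after 955 on the deposited scale and 0 higher under mitochondrial scaling.

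Among the cullins, CUL1, CUL2 and CUL3 fell at 6 h with both compounds while CUL9 rose, a rise that mitochondrial scaling turned to -0.29 for 955 and -0.51 for SNS-032. CUL2 is the scaffold that serves VHL and other elongin-bound receptors. For CUL2 the authors' deposited table gives log2 fold changes of -0.36 after 1 h of 955 (FDR 0.32), -2.44 after 6 h of 955 (FDR 5.95e-11) and -2.07 after SNS-032 (FDR 5.54e-10), with implied SE of 0.16 to 0.17. At 6 h its RNA thus stood at 0.184 and 0.239 of the DMSO level. CUL3, the scaffold of the BTB receptors, is listed in the authors' deposited table at -0.34, -1.99 and -2.04 in the same order, and CUL3 RNA at 0.252 and 0.244 of the DMSO level at 6 h. CUL1, the scaffold of the F-box proteins, had -0.37, -1.49 and -1.49 in the authors' deposited table. None of these 3 was past the threshold at 1 h.

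The atypical cullins CUL7 and CUL9, large proteins that have both been tied to p53, had positive values on the deposited scale. CUL9 had log2 fold changes of 0.47 (FDR 0.0151), 1.78 (FDR 2.31e-11) and 1.83 (FDR 1.16e-11) in the authors' deposited table, which is 3.44 and 3.57 times the DMSO level at 6 h. CUL7 had 0.17, 0.90 and 1.04 in the authors' deposited table, so CUL7 was past the fold bound with SNS-032 and just under it with 955, and mitochondrial scaling turned those 6 h values to -1.18 and -1.31. FBXW8, the F-box protein that pairs with CUL7, had 0.18, 0.95 and 1.18 in the authors' deposited table, also past the bound with SNS-032 only, and -1.12 and -1.16 at 6 h under mitochondrial scaling.

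The upstream sequences of CUL3, which fell, and CUL9, which rose, are shown because these scaffolds moved in opposite directions. Each is the 250 bases before the RefSeq start in GRCh38.p14, 5′ to 3′ on the strand of the gene, at chr2:224585364-224585613 (minus strand) for CUL3 and chr6:43181946-43182195 (plus strand) for CUL9. Capitals mark matches, on either strand, to the motifs listed with the promoter counts below.
CUL3: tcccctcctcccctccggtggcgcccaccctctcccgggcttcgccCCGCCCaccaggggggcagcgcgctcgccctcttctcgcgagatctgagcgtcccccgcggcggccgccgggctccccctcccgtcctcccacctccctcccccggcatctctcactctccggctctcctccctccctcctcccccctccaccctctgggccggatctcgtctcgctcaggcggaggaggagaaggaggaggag
CUL9: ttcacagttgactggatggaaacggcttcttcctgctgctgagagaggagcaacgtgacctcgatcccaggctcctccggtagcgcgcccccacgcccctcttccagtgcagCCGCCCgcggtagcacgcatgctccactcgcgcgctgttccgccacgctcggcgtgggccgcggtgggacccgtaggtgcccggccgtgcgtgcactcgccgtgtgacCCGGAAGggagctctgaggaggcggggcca
Both are GC-rich (74.8% and 69.2%). Both hold GGGCGG, the core letters of a GC box, on the opposite strand, at -204 in CUL3 and -138 in CUL9, counted from the start. CCGGAAG, the core letters of an ETS site, is at -30 in CUL9 and not in the CUL3 window.

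The F-box class is mixed. Of its 21 genes, 10 fell (47.6%) and 5 rose (23.8%) after 6 h of 955, beside 50.1% and 35.2% of all listed genes. After SNS-032, 13 fell (61.9%) and 6 rose (28.6%), beside 52.5% and 37.8%. After 1 h of 955, 4 fell (19.0%) and 0 rose, beside 7.71% and 0.729%. Mitochondrial scaling leaves 0 of the 21 genes higher and 16 lower with either compound at 6 h. FBXO5 (EMI1) inhibits the anaphase-promoting complex and so acts on another ubiquitin ligase. FBXO5 had log2 fold changes of -1.09 (FDR 0.0201), -2.32 (FDR 4.52e-06) and -2.88 (FDR 5.45e-07) in the authors' deposited table for 955 at 1 h, 955 at 6 h and SNS-032. FBXO45, which works with MYCBP2 and not in a standard CUL1 ligase, had -0.97, -1.98 and -2.25 in the authors' deposited table. At 1 h its FDR was 0.00637, with the fold just inside the bound. FBXL14, FBXO8, FBXO21, FBXO32 (atrogin-1, a factor in muscle wasting) and FBXW11 (a beta-TrCP protein, which acts on beta-catenin) were also lower with both compounds at 6 h. FBXW9 was lower with both compounds too, and near the DMSO level at 1 h: the authors' deposited table gives 0.14, then -1.72 and -1.56 at 6 h.

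Past the threshold with SNS-032 and not with 955 were FBXO42, FBXO22 and FBXO33. FBXO22, which acts on histone demethylases of the KDM4 family, had -0.20, -0.16 and -1.07 in the authors' deposited table. FBXO33, a receptor for YBX1, had -0.66, -0.75 and -1.20 in the authors' deposited table. On the deposited scale the gap between the compounds did not pass for either gene (adjusted p 0.233 for FBXO22 and 0.388 for FBXO33). Under mitochondrial scaling the gap of FBXO22 was 1.18 and passed. FBXO22 and FBXO33 were past the fold bound with SNS-032 only on the deposited scale. They are therefore listed through that comparison, whose value also enters the gap.

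Among F-box genes higher at 6 h on the deposited scale, FBXO44 (tied to turnover of BRCA1), FBXO41 (a neuronal F-box protein), FBXL20 (tied to a synaptic role) and FBXL8 led, and FBXO36 was also higher with both compounds (-0.97 and -0.94 under mitochondrial scaling). FBXO44 had log2 fold changes of 0.04, 1.997 and 2.13 in the authors' deposited table, or 3.99 and 4.38 times the DMSO level at 6 h. FBXO41 had -0.07, 1.91 and 2.05 and FBXL20 -0.14, 1.59 and 1.74 in the authors' deposited table. For these 3 the FDR was 0.826 or higher at 1 h and 6.13e-10 or lower at 6 h. FBXL8 had 0.53, 1.87 and 1.94 in the authors' deposited table, at an average level of 1.73 log2 CPM. Mitochondrial scaling turned the 6 h values of these 4 to between -0.074 (FBXO44 with 955) and -0.61 (FBXL20 with SNS-032). FBXL8 shares 38.7% of its 50-base runs with the overlapping gene model AC074143.1, and FBXL8 and FBXO44 overlap exons of TRADD and FBXO2 on the other strand. The use of strand in counting is not given in the sources used here, so reads of these genes and their partners cannot be told apart. The same holds, in part of their exons, for CUL1, CUL3, CUL9, FBXO5, FBXO45, FBXW8, FBXW9, KCTD19, KCTD21, DCAF13, ASB6 and ASB16, which overlap gene models on the other strand in GENCODE 29. FBXO8, FBXO21, KBTBD3, KLHL5 and DCAF8 have such overlaps too.

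The BTB class, which serves CUL3, has the largest number of genes. Of 25, 17 fell (68%) and 5 rose (20%) after 6 h of 955, beside 50.1% and 35.2% of all listed genes. After SNS-032, 19 fell (76%) and 4 rose (16%), beside 52.5% and 37.8%. After 1 h of 955, 4 fell (16%) and 0 rose, beside 7.71% and 0.729%. Mitochondrial scaling leaves 0 of the 25 higher and 21 lower at 6 h. All 5 KBTBD genes had negative values in all 3 comparisons. BTBD10 had the lowest 6 h value with 955 in the whole set: the authors' deposited table lists BTBD10 at -0.67, -2.57 and -2.21, with implied SE of 0.26 to 0.28. A pseudogene, BTBD10P1, shares 8.89% of the 50-base runs of BTBD10. KCTD5 shares 9.38% with AC141586.1, KLHL2 10.5% with KLHL2P1, KCTD7 10% with AC027644.4 and KLHL12 7.58% with AC007731.2. KCTD5, a CUL3 adaptor that acts on G protein beta-gamma subunits, had -0.20, -1.79 and -1.62 in the authors' deposited table. For KCTD2, its close relative, the authors' deposited table gives -0.60, -1.69 and -1.99. KCTD21, which targets HDAC1 in Hedgehog signalling, had -0.97, -2.00 and -1.69 in the authors' deposited table, at a low average level of 1.14 log2 CPM and an implied SE of 0.42 to 0.44. KBTBD4, a receptor mutated in medulloblastoma, stood at -0.68, -1.80 and -1.55 in the authors' deposited table. KLHL7, KLHL8, KLHL12 (a receptor for the coat protein SEC31), BTBD9, KBTBD3, KBTBD8 and KCTD7 were lower with both compounds as well, KCTD1 with 955 and KCTD6 with SNS-032. The exons of KBTBD4 overlap those of NDUFS3 and PTPMT1 on the other strand.

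KLHL35, with -0.59, -2.11 and -1.37 in the authors' deposited table, had an implied SE of 0.50 to 0.53 and an FDR of 0.0496 with SNS-032, at the edge of the threshold. The BTB genes that rose on the deposited scale were KLHL3, KLHL17, KLHL32 and KCTD19 with both compounds and KLHL5 with 955. KLHL3, which limits WNK kinases and is mutated in familial hypertension, had 0.46, 1.81 and 1.71 in the authors' deposited table (FDR 6.98e-09 and 1.45e-08 at 6 h). KLHL17, an actin-binding receptor, had 0.36, 1.35 and 1.79, and KCTD19, known from meiosis, 0.31, 1.5 and 1.66 in the authors' deposited table. KLHL32 had 0.04, 1.53 and 2.30 in the authors' deposited table at an average level of 1.06 log2 CPM, with an implied SE of 0.43 to 0.44. Under mitochondrial scaling the 6 h values of these 4 lay between -0.048 and -0.72, and KLHL5 was at -1.0005 with 955. KLHL2, a relative of KLHL3 that also binds WNK kinases, had -0.21, -0.56 and -1.21 in the authors' deposited table and passed the threshold with SNS-032 (FDR 0.0241), not with 955 (FDR 0.384). The difference between the compounds for KLHL2 was 0.65, with a 95% interval of -0.18 to 1.47. KLHL2 too is listed through the SNS-032 comparison.

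Of the 5 DCAF genes, 4 fell and 1 rose after 6 h of 955, where 50.1% of all listed genes fell and 35.2% rose. After SNS-032 the counts were also 4 and 1, beside 52.5% and 37.8%, and 0 passed after 1 h of 955. Mitochondrial scaling leaves 0 of them higher. DCAF7 is a scaffold for DYRK1A and HIPK2, and has the highest average level of the set, 7.91 log2 CPM. DCAF7 had log2 fold changes of 0.08, -1.60 and -1.48 in the authors' deposited table, with the smallest implied SE of the set, 0.11. DCAF13, a nucleolar protein of ribosome assembly, had 0.10, -1.91 and -1.75 in the authors' deposited table. DCAF12, which reads acidic C-terminal ends of proteins, had -0.47, -1.83 and -1.72 in the authors' deposited table. DCAF16, a receptor that several electrophilic degraders have been found to recruit, had -0.44, -1.20 and -1.66 in the authors' deposited table, with an FDR of 0.00383 and 0.000386 at 6 h. DCAF8 rose on the deposited scale, with 0.36, 1.16 and 1.30 in the authors' deposited table, while mitochondrial scaling turned the 6 h values to -0.91 and -1.04. DCAF8 shares 53.9% of its 50-base runs with the overlapping gene model AL139011.2, so its value is uncertain.

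Of the 10 SOCS box genes, 4 fell (40%) and 3 rose (30%) with each compound at 6 h. The shares over all listed genes were 50.1% and 35.2% with 955, and 52.5% and 37.8% with SNS-032. After 1 h of 955, 3 fell (30%) and 0 rose, beside 7.71% and 0.729%. Mitochondrial scaling leaves 0 of the 10 higher at 6 h. ASB6, which binds the insulin receptor adaptor SH2B2, had -0.49, -1.36 and -1.87 in the authors' deposited table. The authors' deposited table gives -0.27, -1.53 and -1.20 for ASB13, which acts on SNAI2, and 0.77, 1.19 and 0.62 for ASB16, which passed with 955 only (-0.88 at 6 h under mitochondrial scaling). ASB8 was also lower and ASB9 higher with both compounds, the latter at -1.02 and -1.33 under mitochondrial scaling. ASB14 had the highest 6 h value with 955 of the set, with 0.69, 2.08 and 2.09 in the authors' deposited table. Its average level was also the lowest, 0.645 log2 CPM, its implied SE was 0.52, and its exons overlap those of APPL1 on the other strand, so the value is uncertain. Under mitochondrial scaling the SNS-032 value of ASB14 was -0.26. SOCS6, a receptor for activated KIT and other tyrosine kinases, had 0.19, 0.78 and 1.20 in the authors' deposited table and passed the bound with SNS-032 only, with -1.29 and -1.15 at 6 h under mitochondrial scaling.

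The 11 genes that fell after 1 h of 955 were SOCS3, KLHL26, SOCS1, KBTBD7, KBTBD6, ASB7, FBXL12, FBXO30, FBXO28, FBXO5 and KLHL21. The cullins (0 of 5), DCAF (0 of 5), KCTD (0 of 7), FBXW (0 of 3) and BTBD (0 of 2) genes had none, beside 7.71% of all listed genes. In families this small, 0 is near that share. SOCS1 and SOCS3, the feedback inhibitors of JAK kinases that cytokines induce, were among the lowest at 1 h. SOCS3 had -2.51 (FDR 0.0363) at 1 h, then -0.50 and -0.97 at 6 h of 955 and SNS-032, in the authors' deposited table. Its average level was 0.873 log2 CPM and its implied SE 0.67 at 1 h. SOCS1 had -1.86 (FDR 0.000641), -0.74 (FDR 0.079) and 0.20 (FDR 0.857) in the authors' deposited table, that is 0.275, 0.6 and 1.15 of the DMSO level. Neither SOCS gene was past the threshold at 6 h with either compound on the deposited scale, and both are listed through the 1 h comparison. Under mitochondrial scaling both were lower at 6 h, SOCS1 at -2.81 with 955 and -2.15 with SNS-032, and SOCS3 at -2.58 and -3.32.

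KLHL26 was low throughout, with -2.04 (FDR 4.42e-05), -1.85 and -2.05 in the authors' deposited table. KBTBD6 and KBTBD7 lie near each other on chromosome 13, each with 1 exon, and their products act together in a CUL3 ligase for the RAC1 activator TIAM1. KBTBD7 shares 10.5% of its 50-base runs with KBTBD6, so their values are uncertain as far as reads were split between them. KBTBD7 had -1.85 (FDR 0.000484), -0.92 and -1.42, and KBTBD6 -1.44 (FDR 0.0011), -1.63 and -2.90, in the authors' deposited table. On the deposited scale the values of ASB7, FBXO28 and KLHL21 lay close together in the 3 comparisons, while under mitochondrial scaling all of them were lower at 6 h than at 1 h. ASB7, a receptor that acts on spindle dynamics, had -1.28, -1.19 and -1.15 in the authors' deposited table. For FBXO28, an F-box protein that acts on MYC, the authors' deposited table gives -1.12, -1.12 and -1.01. KLHL21, which directs Aurora B to the spindle midzone in dividing cells, had -1.06, -1.14 and -1.34 in the authors' deposited table. FBXL12 had -1.22 (FDR 0.000113), -0.73 and -0.74, and FBXO30 -1.14 (FDR 0.00145), -0.71 and -0.59, in the authors' deposited table. Both were under the FDR threshold in every comparison and past the fold bound at 1 h only on the deposited scale, so both are listed through the 1 h comparison. Under mitochondrial scaling both passed in every comparison with DMSO.

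**Figure D2:**
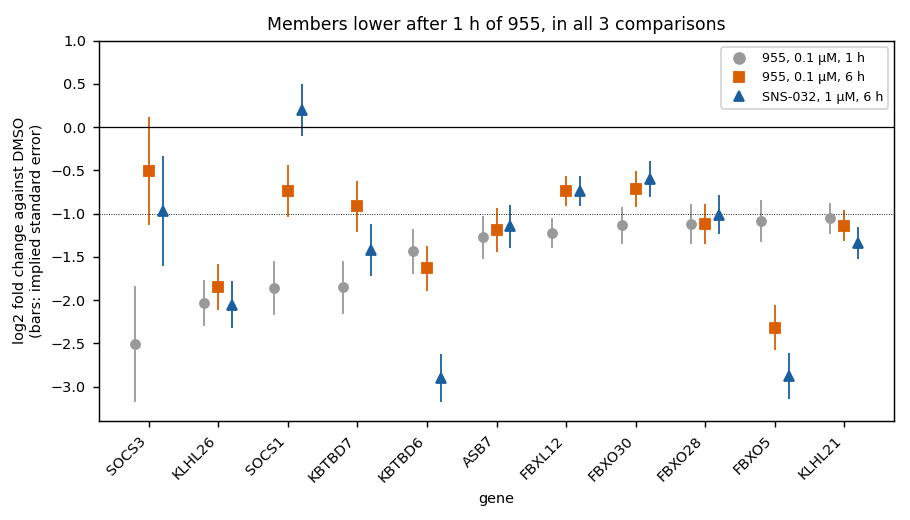
Log2 fold change against DMSO (y axis) of the 11 genes called at 1 h with 955 (x axis, ordered by the 1 h value), for 955 at 1 h (grey circles), 955 at 6 h (orange squares) and SNS-032 at 6 h (blue triangles), with bars of 1 implied SE. On the deposited scale SOCS1 and SOCS3 lie nearer to 0 at 6 h than at 1 h, FBXO5 lies lower at 6 h, and KLHL26 lies near -2 in all 3 comparisons.

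The upstream sequences of 3 of the 1 h genes are shown because these genes fell together and differ in what precedes their starts. FBXL12 is at chr19:9819080-9819329, KLHL21 at chr1:6602870-6603119 and KBTBD6 at chr13:41132803-41133052, all on the minus strand of GRCh38.p14 and taken from RefSeq as above.
FBXL12: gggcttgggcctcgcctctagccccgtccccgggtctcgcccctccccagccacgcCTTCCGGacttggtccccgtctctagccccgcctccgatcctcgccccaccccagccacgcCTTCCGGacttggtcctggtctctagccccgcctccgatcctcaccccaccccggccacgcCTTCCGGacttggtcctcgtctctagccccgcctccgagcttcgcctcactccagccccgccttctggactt
KLHL21: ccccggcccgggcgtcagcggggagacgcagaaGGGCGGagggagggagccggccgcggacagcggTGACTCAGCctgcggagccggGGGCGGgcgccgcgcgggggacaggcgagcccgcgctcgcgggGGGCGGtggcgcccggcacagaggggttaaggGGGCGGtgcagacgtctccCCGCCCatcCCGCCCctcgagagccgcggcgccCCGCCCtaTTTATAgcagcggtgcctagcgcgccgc
KBTBD6: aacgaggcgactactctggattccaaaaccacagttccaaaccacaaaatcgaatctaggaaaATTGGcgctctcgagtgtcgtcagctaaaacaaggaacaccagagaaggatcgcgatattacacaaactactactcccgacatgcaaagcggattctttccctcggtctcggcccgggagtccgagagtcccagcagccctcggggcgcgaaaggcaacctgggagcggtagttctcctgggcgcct
The FBXL12 window is built of a 61-base repeat. CCGGAAG is present 3 times on the opposite strand, at -194, -133 and -72, and the 3 units are identical at 57, 55 and 53 of 61 positions in pairs (93.4%, 90.2% and 86.9%). The KLHL21 window is 79.2% GC and holds 7 matches to GGGCGG. It also has TATAAA, the letters of a TATA box, on the opposite strand at -28. The core letters of an AP-1 site, TGACTCA, begin at -184. The KBTBD6 window, 54.4% GC, holds 1 match, CCAAT at -187 on the opposite strand.

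Of the 66 genes, 54 had a RefSeq promoter, and 9 motifs were searched on both strands in their 250 bases. GGGCGG was in 57.4% of these windows, 66.3% of those of listed protein-coding genes and 42.3% of all 27305 promoters in the table. CCAAT was in 22.2%, 36.4% and 33% in the same order. CCGGAAG was in 16.7%, 17.2% and 8.82%, and TGACNNNGC, the core letters of the site that NRF2 reads, in 16.7%, 11.9% and 11%. The other motifs were rarer in the set. TATAAA was in 3.7% of these windows, 6.08% of those of listed protein-coding genes and 11.1% of all promoters. The shares of TGACGTC, the core of a CRE, were 3.7%, 5.41% and 3.29% in the same order. CACGTG, an E-box, was in 1.85%, 8.62% and 6.49%. For TGACTCA the shares were 1.85%, 2.1% and 4.16%. TTCNNNGAA, the core letters that STAT proteins read, was in 1.85%, 5.41% and 6.78%. The match to TGACTCA in KLHL21 is also its match to TGACNNNGC. Mean GC of the windows was 63.2% over the 54 genes, 67.2% over 10 of the genes lower at 1 h, 62.8% over 33 of those lower after 6 h of 955 and 57.3% over 12 of those higher. It was 64% over the listed protein-coding genes, 63.8% over those of them lower at 1 h and 56.9% over all promoters. A match describes the letters only.

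Gene structure differed between the genes that fell at 1 h and the rest. Exons were counted in the GENCODE 29 transcript with the longest coding sequence. The 11 genes had a median of 3 exons (range 1 to 6), and the other 55 a median of 8 (2 to 41). Listed protein-coding genes differed in the same direction, with a median of 4 exons where lower at 1 h and 9 where not past the threshold. Of the 35 genes of the set with 6 exons or fewer, 11 fell at 1 h (31.4%), and of the 31 with 7 or more, 0. The bound of 6 is the top of the range of the 11 genes, so the 0 above it is fixed by that choice. Receptors with other names, counted further below, did not all follow this pattern. Those that fell at 1 h were AMBRA1 (18 exons), CCNF (17 exons), KDM2A (21 exons) and FEM1A (1 exon). Under mitochondrial scaling 28 of the 35 genes of the set (80.0%) and 11 of the 31 (35.5%) were lower at 1 h. On that scale 1668 of all 5270 listed protein-coding genes were lower, and their split by exon number was not counted. On the deposited scale, 15.3% of 2072 listed protein-coding genes with 6 exons or fewer and 3.70% of 3191 with 7 or more were lower at 1 h. With 3 exons or fewer, 7 of 13 genes of the set fell at 1 h (53.8%), among them SOCS1, SOCS3, KBTBD6 and KBTBD7, beside 20.9% of 805 listed protein-coding genes.

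Across the 66 genes, the 1 h log2 fold change and the exon number had a Spearman rho of 0.61 and a Pearson r of 0.63 with log2 exon number, beside 0.33 and 0.34 across 5263 listed protein-coding genes. These correlations are across genes measured in the same libraries, and genes are not independent replicates. The rho for spliced length was -0.08, for gene span 0.23 and for average level 0.25. Average level differed too: the genes lower at 1 h had a median of 3.45 log2 CPM and the others 4.45. Over listed protein-coding genes these medians were 3.54 where lower and 4.46 where not past the threshold. The part of average level in the pattern was not tested. At 6 h the rho with exon number was 0.21 for 955 and 0.29 for SNS-032, beside 0.26 and 0.32 across the listed protein-coding genes. The genes that rose after 6 h of 955 on the deposited scale had a median of 12 exons, with CUL9 (41 exons) the highest, and those that fell a median of 6. The medians over listed protein-coding genes were 11 for those that rose and 7 for those that fell. CUL1 and CUL2, with 22 and 21 exons, fell at 6 h all the same.

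**Figure D3:**
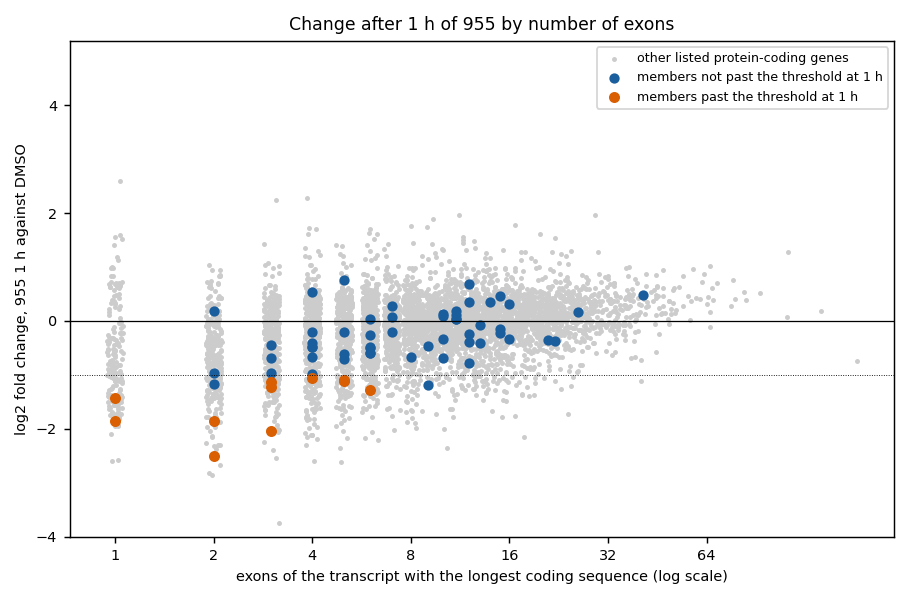
Log2 fold change after 1 h of 955 against DMSO (y axis) by exon number on a log scale (x axis), for the 11 genes of the set past the threshold (orange), 54 of the other 55 (blue) and the other listed protein-coding genes (grey). The orange points have 1 to 6 exons, and no gene of the set with 7 or more exons was past the threshold on the deposited scale, where mitochondrial scaling calls 11 of those 31.

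Which genes moved between 1 h and 6 h of 955 was read from the difference of their deposited log2 fold changes, with an approximate standard error from the implied SE and Benjamini-Hochberg adjustment over the 5759 listed genes. By this contrast 18 genes of the set were lower at 6 h than at 1 h (27.3%) and 12 higher (18.2%), beside 35.6% and 27% of all listed genes. The median difference was -0.42, beside -0.45 over all listed genes. Under mitochondrial scaling 43 genes of the set were lower and 0 higher, beside 3344 and 206 of all 5759 listed genes. The lower genes included CUL2 (-2.08, implied SE 0.17, adjusted p 1.56e-10), DCAF13 (-2.01), BTBD10 (-1.90), FBXW9 (-1.86), DCAF7 (-1.68), CUL3 (-1.65), KCTD5 (-1.58) and CUL1 (-1.12). The higher genes on the deposited scale included SOCS3 (2.004, adjusted p 0.00817), FBXO41 (1.98, adjusted p 3.2e-12), FBXO44 (1.96), FBXL20 (1.73) and CUL9 (1.31), and mitochondrial scaling turned CUL9 to -0.086.

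The 1 h genes split in this contrast. SOCS1 was 1.12 higher at 6 h than at 1 h (adjusted p 0.00205), a difference that mitochondrial scaling turned to -0.27, and FBXO5 was lower, at -1.23 (adjusted p 0.000436). KBTBD7 (0.94, adjusted p 0.00657) and FBXL12 (0.49, adjusted p 0.0129) passed the adjusted p but not the fold bound. KLHL26 (0.19, adjusted p 0.502), ASB7 (0.08, adjusted p 0.756), KLHL21 (-0.08, adjusted p 0.664) and FBXO28 (-0.00037, adjusted p 0.999) did not pass either on the deposited scale. Under mitochondrial scaling all 4 passed as lower at 6 h, with -1.21 for KLHL26, -1.31 for ASB7, -1.48 for KLHL21 and -1.40 for FBXO28. The same scaling turned KBTBD7 to -0.46 and FBXL12 to -0.91. These 11 genes were picked for their low 1 h values, which also enter the difference, so a shift towards 0 among them is in part fixed by the choice.

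At 6 h the conjugate 955 and its part SNS-032 gave close values for most of the set, at 0.1 µM and 1 µM. In the approximate contrast of the compounds, made for this 1 pair over all 5759 listed genes, 1 gene of the set was higher with 955 (1.52%) and 0 were lower (3 at an unadjusted p under 0.05), beside 0.851% and 0.26% of all listed genes. The median difference was -0.01, beside -0.0012 over all listed genes. The gene was KBTBD6, with a difference of 1.27 (implied SE 0.27, adjusted p 0.012, 95% interval 0.71 to 1.82), which is the gap between 0.323 and 0.134 of the DMSO level. The call on KBTBD6 was lost at an FDR under 0.01, and when the shared DMSO group was ignored in the standard error. KBTBD7, its neighbour, had a difference of 0.50 with an interval of -0.11 to 1.12.

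SOCS1 had the lowest difference, -0.93 (adjusted p 0.114, interval -1.56 to -0.31). FBXO22 (0.91, adjusted p 0.233) also had an interval that left out 0 and an adjusted p that did not pass on the deposited scale, while under mitochondrial scaling its difference was 1.18 and passed. For the cullins the differences were small: 0.002 for CUL1 (interval -0.30 to 0.30), -0.38 for CUL2 (-0.73 to -0.03), 0.05 for CUL3 (-0.28 to 0.38) and -0.05 for CUL9 (-0.29 to 0.19). The 95% interval lay within 1 of no difference for 45 of the 66 genes and within 0.5 for 18. For the other 21, KBTBD6 among them, the interval reached 1 or more in size.

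**Figure D4:**
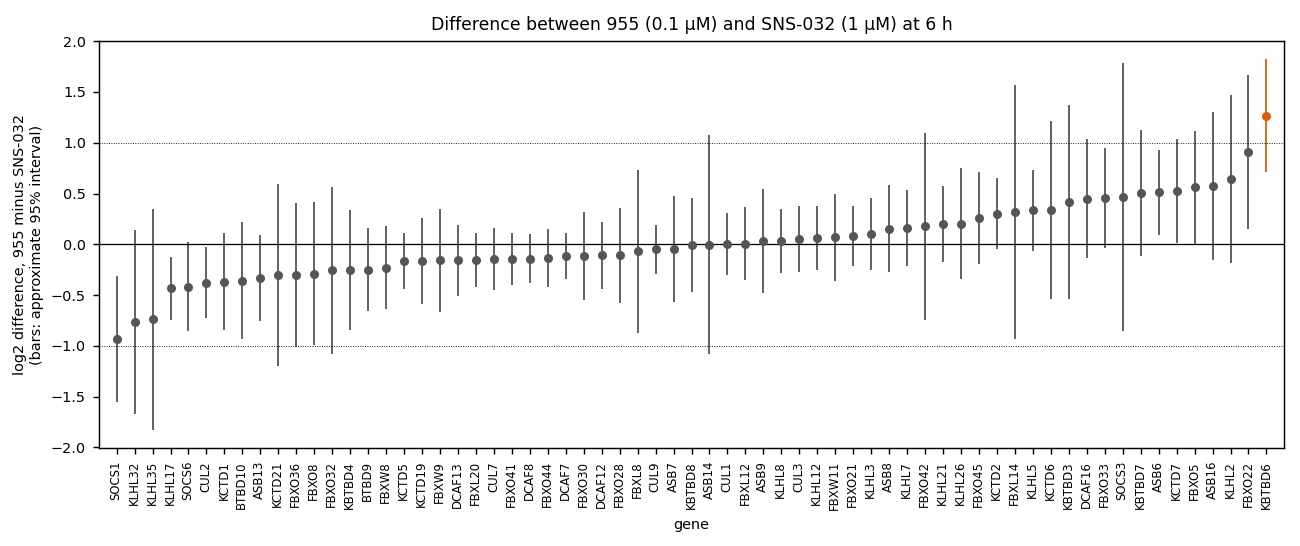
Approximate log2 difference of 955 at 0.1 µM minus SNS-032 at 1 µM at 6 h (y axis) for 65 of the 66 genes (x axis, ordered by the difference), with bars of the 95% interval and dotted lines at the fold bound of 1. KBTBD6 (orange, 1.27) is the single gene past the threshold on the deposited scale, and the intervals of SOCS3, FBXL14 and KLHL35 are among the widest.

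The other parts of the ligases were read from 3 gene lists. For the counts below, the shares over all listed genes were 7.71% lower and 0.729% higher after 1 h of 955. They were 50.1% and 35.2% after 6 h of 955, and 52.5% and 37.8% after SNS-032. Of 17 shared subunits and ubiquitin-conjugating enzymes, 8 are listed, of which 0 passed the threshold after 1 h of 955, 7 fell and 0 rose after 6 h of 955, and 7 fell and 1 rose after SNS-032, with medians of -0.06, -1.32 and -1.36 (all listed genes are at -0.05, -1.03 and -1.07). UBE2D2, a ubiquitin-conjugating enzyme used by many RING ligases, had the largest fall, with -1.89 and -1.94 at 6 h in the authors' deposited table. ELOB, the elongin B that links SOCS box proteins to their cullin, had 0.94 and 1.24 in the authors' deposited table, below the mitochondrial medians of 2.07 and 2.35. Of 24 genes of the NEDD8 cycle, 10 are listed, of which 0 passed at 1 h, 6 fell and 3 rose after 955 at 6 h, and 6 fell and 1 rose after SNS-032, with medians of -0.04, -1.15 and -1.51. SENP8, which matures NEDD8, had -2.97 and -2.39, and NEDD8 itself 1.16 and 1.37, again below the mitochondrial medians, at 6 h in the authors' deposited table. The average level of SENP8 was low, 0.870 log2 CPM, with implied SE of 0.60 and 0.58 at 6 h. COPS4, a subunit of the COP9 signalosome that removes NEDD8 from cullins, had -2.09 and -2.12 in the authors' deposited table.

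Of 54 further receptors with other names, 29 are listed, of which 4 fell and 0 rose at 1 h, 15 fell and 11 rose after 6 h of 955, and 16 fell and 12 rose after SNS-032, with medians of -0.28, -1.22 and -1.18. These 6 h counts are close to the shares over all listed genes, 50.1% lower and 35.2% higher with 955, and 52.5% and 37.8% with SNS-032. The 4 that fell at 1 h were AMBRA1 (-1.38, 18 exons), CCNF (-1.13, 17 exons), FEM1A (-1.12, 1 exon) and KDM2A (-1.06, 21 exons). WSB1, a SOCS box receptor, had the largest rise, with 2.98 and 2.89 at 6 h in the authors' deposited table, above the mitochondrial medians. KEAP1, the CUL3 receptor that holds NRF2 in check, had -0.88 (FDR 0.0209) after 1 h of 955, -3.53 (FDR 2.33e-10) after 6 h of 955 and -3.67 (FDR 1.16e-10) after SNS-032 in the authors' deposited table, lower at 6 h than any of the 66 genes with the same compound. The authors' deposited table gives CISH, a relative of SOCS1, a value of -5.25 for SNS-032 at an average level of 0.589 log2 CPM, and its difference between the compounds, 2.11, did not pass (adjusted p 0.437).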

How the data were processed

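RNA-seq of 12 MOLT4 samples (4 groups of 3, assigned from titles) was read from a table of the authors' 3 comparisons with DMSO. Per the file headers, the log fold change and the average log CPM deposited by the authors are on a log scale, read as log2 since in every gene the value furthest from 0 has a size of 1.00 or more. The deposited F is a score of the authors' test, and the implied standard errors rest on reading it as the squared ratio of a fold change to its standard error. The p-values and FDR are used as deposited. The submitters' processing notes name DESeq2 and hg38, with no role. The columns carry the names of a quasi-likelihood F test, and the tool that made the table is not given in the sources used here. The aligner, counter, strand use and annotation are not given in the sources used here, and counts per sample were not used, so no depth can be given.

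Computed here, with Python 3.11.15, pandas 2.3.3 and scipy 1.17.1, were implied standard errors, denominator degrees of freedom solved from F and p (median 23.3), and contrasts of treated groups. A contrast is the difference of log2 fold changes, its standard error the root mean square of both implied standard errors, with a t distribution and Benjamini-Hochberg adjustment over 5759 listed genes. The calculation was run on simulated data with a common spread per gene. There the approximate and the direct contrast have the same standard error by construction. That run therefore cannot show how good the approximation is for the deposited values. The degrees of freedom were under 12 for 3 of the 66 genes. IDs were named through RefSeq (GRCh38.p14), where 5727 matched, and structures came from GENCODE 29 (66 of 66 genes). Genes named are the cullins, the largest changes per symbol family, all genes past the threshold at 1 h or between compounds, the largest changes at or above the median level, the highest levels, genes past the threshold with 1 compound only, and the extremes of each list. Genes named besides these were chosen after their values were seen. The set and the lists were chosen with earlier results of these data known. Alternatives were the call rule, a level filter, mitochondrial scaling and other standard errors of the contrasts. The values of 1 of the 66 genes are counted in the totals and not reported singly here.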

Additional observations from a re-analysis of the deposited data

Results flagged for a closer look

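A difference between the compounds at 6 h passed its test for KBTBD6, at 1.27 (955 minus SNS-032, log2). A difference between the times passed its test for 30 genes (955 at 6 h minus 955 at 1 h, log2, approximate contrast), of which 18 were lower at 6 h. Among the larger of these falls were those of CUL2 (-2.08), DCAF13 (-2.01), BTBD10 (-1.90), FBXW9 (-1.86), DCAF7 (-1.68) and CUL3 (-1.65). Smaller ones were found for KCTD5 (-1.58), KLHL35 (-1.52), DCAF12 (-1.36), ASB13 (-1.26), FBXO5 (-1.23) and KLHL7 (-1.22). KBTBD4 (-1.13), CUL1 (-1.12), KCTD2 (-1.09), KCTD21 (-1.03) and FBXO45 (-1.02) lay nearest to the bound. The 12 genes higher at 6 h on the deposited scale were SOCS3 (2.004), FBXO41 (1.98), FBXO44 (1.96), FBXL20 (1.73), KLHL32 (1.497), ASB14 (1.39), KLHL3 (1.35), FBXL8 (1.33), FBXO36 (1.32), CUL9 (1.31), KCTD19 (1.19) and SOCS1 (1.12). Under mitochondrial scaling 0 genes of the set were higher at 6 h, beside 206 of all 5759 listed genes.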

How the results depend on the processing

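Without the fold bound, 48 genes passed between the times of 955 (21 higher, 27 lower). With a bound of 2, 2 genes passed after 1 h of 955, 7 after 6 h of 955, 13 after SNS-032, 0 between the compounds and 3 between the times. Between the compounds 0 passed at an FDR under 0.01 and 0 where the standard error ignored the shared DMSO group, while the larger implied standard error kept the call on KBTBD6. Mitochondrial scaling gave 39 genes after 1 h of 955 and 2 between the compounds (KBTBD6 and FBXO22, the latter at 1.18), and medians of -1.08 (955 at 1 h), -3.24 (955 at 6 h), -3.57 (SNS-032), 0.27 (between compounds) and -1.81 (between times). Of all 5759 listed genes it called 1766 lower and 16 higher after 1 h of 955, and 11 lower and 170 higher between the compounds. A filter at an average of 1 log2 CPM moved no count by over 1.5 times.

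Under mitochondrial scaling the sign changed for 17 of the 66 genes after 1 h of 955, 17 after 6 h of 955, 19 after SNS-032, 22 between the compounds and 21 between the times. For genes taken by the naming rule, 39 of the values that changed sign were past the threshold on either scale. After 6 h of 955 these became -0.88 (ASB16), -1.18 (CUL7), -0.29 (CUL9), -0.91 (DCAF8), -0.48 (FBXL20), -0.20 (FBXL8), -0.16 (FBXO41), -0.074 (FBXO44), -1.12 (FBXW8), -0.57 (KCTD19), -0.72 (KLHL17), -0.26 (KLHL3), -0.54 (KLHL32) and -1.29 (SOCS6). After SNS-032 they became -0.26 (ASB14), -1.73 (ASB16), -1.31 (CUL7), -0.51 (CUL9), -1.04 (DCAF8), -0.61 (FBXL20), -0.41 (FBXL8), -0.30 (FBXO41), -0.21 (FBXO44), -1.16 (FBXW8), -0.68 (KCTD19), -0.56 (KLHL17), -0.64 (KLHL3), -0.048 (KLHL32), -2.15 (SOCS1) and -1.15 (SOCS6). Between the times they became -0.0067 (ASB14), -1.31 (ASB7), -0.086 (CUL9), -0.063 (FBXL8), -1.36 (FBXO22), -0.20 (KCTD19), -1.21 (KLHL26), -0.049 (KLHL3) and -0.27 (SOCS1). The sign changes follow from a shift that is the same for every gene of a comparison.

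No paired analysis was possible because the table holds comparisons and not values per sample. For the same reason leaving out replicates was not run. Depth is unknown, and precision is limited for genes of low level such as SOCS3 and ASB14.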
